A study of Oryza sativa with 6 samples.

Results

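The family of miR165 and miR166, regulators of HD-ZIP III transcripts, was followed in small RNA of germinating rice seeds kept at 25 °C or at 35 °C. Its members were taken as every miR165 or miR166 name in the deposited table. This gave 52 of 641 names, 4 of miR165 and 48 of miR166. Of these, 16 names end in -3p, 12 end in -5p and 24 carry no arm.

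Plant miR165 and miR166 guide the cleavage of transcripts of the HD-ZIP III (class III homeodomain-leucine zipper) transcription factors, which in Arabidopsis include REVOLUTA, PHABULOSA and PHAVOLUTA. These factors act on the upper side of leaves, in the shoot meristem and in vascular tissue, and the miRNA restricts them to those domains. The guide strand is cut from the 3p arm of the hairpin and the 5p arm gives the passenger strand, which is usually scarce. A dedicated Argonaute protein, known from Arabidopsis as ZWILLE, sequesters the miRNA in the meristem.

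All seeds were of Kasalath, an aus-type rice cultivar with no transgene or mutation named in the labels. There were 3 libraries from seeds at 25 °C (normal 1 to 3) and 3 from seeds at 35 °C (hot 1 to 3), labelled 5 days after germination. Seeds lay on damp tissue, 5 to a dish and 4 dishes per temperature, 40 seeds in all. The 25 °C dishes stood in the laboratory under a cardboard box and the 35 °C dishes in an incubator, so temperature and place cannot be told apart. The submitters describe 3 biological replicates per temperature without saying which dishes each drew on, and p-values measure the spread between these libraries. Germinating seeds were the sampled material, which a table of miRNA names offers no marker genes to check, and fewer cells that make a miRNA cannot be told apart from less of it per cell. Column sums were 147986, 136294 and 203192 counts in normal libraries 1 to 3 and 169694, 330009 and 377473 in hot libraries 1 to 3. Library totals, recovered from the deposited normalised signal, were 264112, 250255 and 275549 at 25 °C and 157488, 240428 and 243885 at 35 °C. Each column sum lay below its library total at 25 °C and above it at 35 °C. The choice between them therefore shifts the comparison of temperatures. What the totals count is not stated. Between libraries of 1 temperature the chi-square over degrees of freedom was 5.128 to 23.2. Rows that repeat the same reads enter it and raise it, so it cannot say whether these libraries differed beyond counting error.

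Many names of the family repeat the same counts. The 52 names sum to 96542 counts, 80.1% of them under names with no arm, 19.4% under 3p names and 0.49% under 5p names. Only 43 rows are distinct, 40 remain once whole multiples are merged, and 17 once multiples that hold within 5% or 3 counts are merged too. At large multiples any steady ratio passes this last rule. It thus merges rows of like profile, whether or not they hold the same reads. The row mir166f-3p had 76, 74 and 108 counts in normal libraries 1 to 3 and 60, 116 and 159 in hot libraries 1 to 3, or 593 in all. The row mir166 is exactly 2 times mir166f-3p in all 6 libraries, and mir166a-3p exactly 6 times. In the same way mir166k-3p is 2 times mir166n-3p. The names mir166p, mir166r, mir166s and mir166t are identical, as are mir166n and mir166o, and mir166h-5p and mir166m-5p.

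Further rows are sums of smaller ones. With mir166f-3p, mir166n-3p, mir166p, mir166m-3p and mir166q taken as 5 base rows, a choice made after the values were seen, 12 of the other 27 names with 100 or more counts equal a whole-number sum of them in every library. For example, mir166d-3p is 4 times mir166f-3p plus mir166p. The name mir166h is 7 times mir166f-3p plus 2 times mir166p. The name mir166g is 9 times mir166f-3p plus mir166n-3p plus mir166p. The name mir166c is 15 times mir166f-3p plus mir166p, mir166q and 2 times mir166m-3p. Counting names within 1 count of such a sum in each library brings the number to 15. The large names mir166a, mir166b, mir166d and mir166f had no exact sum. Their closest sums missed by up to 4, 15, 13 and 17 counts in a library. Among the 5p names, mir166e-5p equals mir166d-5p plus mir166h-5p, with 15, 16 and 13 counts at 25 °C and 10, 10 and 14 at 35 °C.

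**Figure D1:**
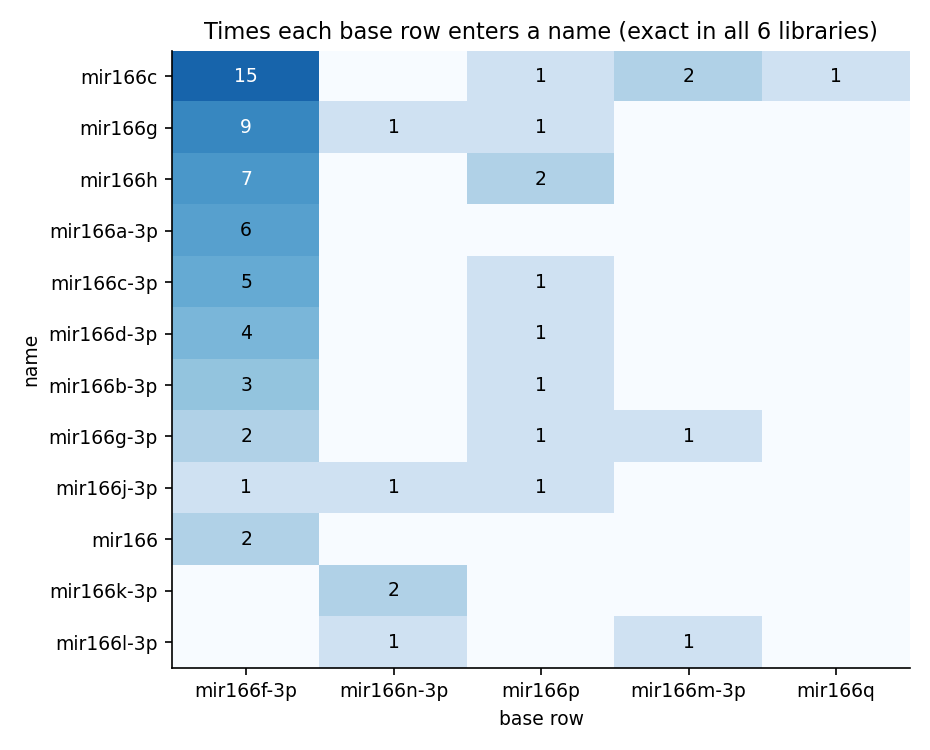
Whole-number composition of the 12 names (vertical axis) that equal a sum of the 5 base rows (horizontal axis) in all 6 libraries. Each cell gives how many times the base row enters, and mir166f-3p enters up to 15 times.

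The rank of the family in abundance depended on which rows were merged. Counted with each set of identical or whole-multiple rows entered by its smallest row, miR166 was second of 31 families at 25 °C, after miR156, and ranked 3 at 35 °C, after miR156 and miR396. In normal libraries 1 to 3 it held 9.75%, 10.6% and 10.1% of all counts entered this way. In hot libraries 1 to 3 it held 6.71%, 6.67% and 8.02%. The groups do not overlap in this share. A share depends on the other families as well, and in how many of them the groups separate was not counted. The rows mir166a to mir166h stay in this sum although each but mir166g is a near-multiple of mir166f-3p, and mir166g is 9 times it plus mir166n-3p and mir166p. With near-multiples merged too, the sum in normal library 1 was 580 instead of 11667 counts, and the family ranked 5 of 112 families at both temperatures. Its share was then 2.03%, 2.24% and 1.83% at 25 °C and 1.27%, 1.25% and 1.54% at 35 °C, again without overlap.

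The most abundant name, mir166a, had 1759, 1759 and 2506 counts at 25 °C and 1366, 2655 and 3687 at 35 °C. It stood at 22.8 to 23.8 times mir166f-3p in every library. The name mir166b had 1652, 1650 and 2352 counts at 25 °C and 1290, 2498 and 3407 at 35 °C. Both rows were lowest in hot library 1 and highest in hot library 3, which also had the lowest and the highest library total at 35 °C.

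The next names had the same profile over the libraries. For mir166c the counts were 1189, 1185 and 1699 against 927, 1795 and 2482. For mir166d they were 1108, 1106 and 1579 against 865, 1676 and 2286. The 4 rows mir166a to mir166d keep a nearly steady ratio to mir166f-3p. At ratios this large any steady ratio is a near-multiple, so this shows a shared profile, not the same reads. Whether the 4 rows measure the family separately cannot be told from it.

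Lower in the order, mir166e had 983, 964 and 1385 counts at 25 °C and 775, 1496 and 2047 at 35 °C. The name mir166f had 821, 821 and 1166 against 633, 1234 and 1711. The name mir166g had 716, 690 and 1006 against 575, 1099 and 1479, and mir166h 540, 536 and 778 against 426, 816 and 1119. None of these groups separate in raw counts, because hot library 1 lies below every 25 °C library in each of the 4 rows while hot libraries 2 and 3 lie above them.

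The 3p names followed the same course. The name mir166a-3p had 456, 444 and 648 counts at 25 °C and 360, 696 and 954 at 35 °C. The names mir166c-3p (384, 379 and 551 against 303, 582 and 798) and mir166d-3p (308, 305 and 443 against 243, 466 and 639) differ from it by whole multiples of mir166f-3p and by mir166p. The name mir166i, which carries no arm, had 310, 307 and 444 against 243, 468 and 641. A larger count under mir166a-3p, mir166c-3p or mir166d-3p is thus mostly a larger multiple of the mir166f-3p row, not a deeper measurement. For names with no exact sum, such as mir166i, this is not settled.

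Whether the family was higher or lower at 35 °C was asked first name by name, in a single edgeR quasi-likelihood fit over all 253 names that passed the filter on low counts, scaled by TMM, a method that takes most rows as unchanged. Of 35 members tested, 8 were called lower (Benjamini-Hochberg adjusted p under 0.05) and 0 higher, while 2 had a positive value. Over all names 15.8% were called lower and 7.11% higher, and 8 of 35 is 22.9%. At an unadjusted p under 0.05, 21 members were lower and 0 higher, beside 24.5% lower and 22.9% higher over all names. Both limma-voom and the DESeq2 test called 7 members lower and 0 higher, beside 17.4% and 15.8% of all names lower. The 8 were mir166a, mir166b, mir166c, mir166d, mir166e, mir166f, mir166g and mir166h, with log2 fold changes of -0.34 to -0.38. The name mir166b stood at 11100 ± 820.8 CPM (the count relative to the TMM-scaled column sum) at 25 °C and 8515 ± 689.6 at 35 °C (mean ± SD, 3 libraries each). Its log2 fold change was -0.38 (SE 0.09, edgeR adjusted p = 0.0303). The name mir166g had the least of these falls, -0.34 (SE 0.10, edgeR adjusted p = 0.0465).

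The calls went with the size of a row relative to mir166f-3p. All 26 tested rows at least as large as mir166f-3p had a negative log2 fold change, from -0.26 to -0.49. Every called row was at least 7.108 times mir166f-3p and no uncalled row was more than 6 times it. The row mir166f-3p itself stood at 506 ± 35.1 CPM at 25 °C and 396.3 ± 33.1 at 35 °C. Its log2 fold change was -0.35 (SE 0.18, edgeR adjusted p = 0.147), which was not called. Its 6-fold copy mir166a-3p had the same log2 fold change of -0.35, with an SE of 0.11 (edgeR adjusted p = 0.0558). The median over the 35 members was -0.38, beside 0.01 over all names tested. With 1 row per set of identical or whole-multiple rows, 7 of 31 members were called lower, beside 16.3% of all rows so tested, and mir166g was not among them.

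**Figure D2:**
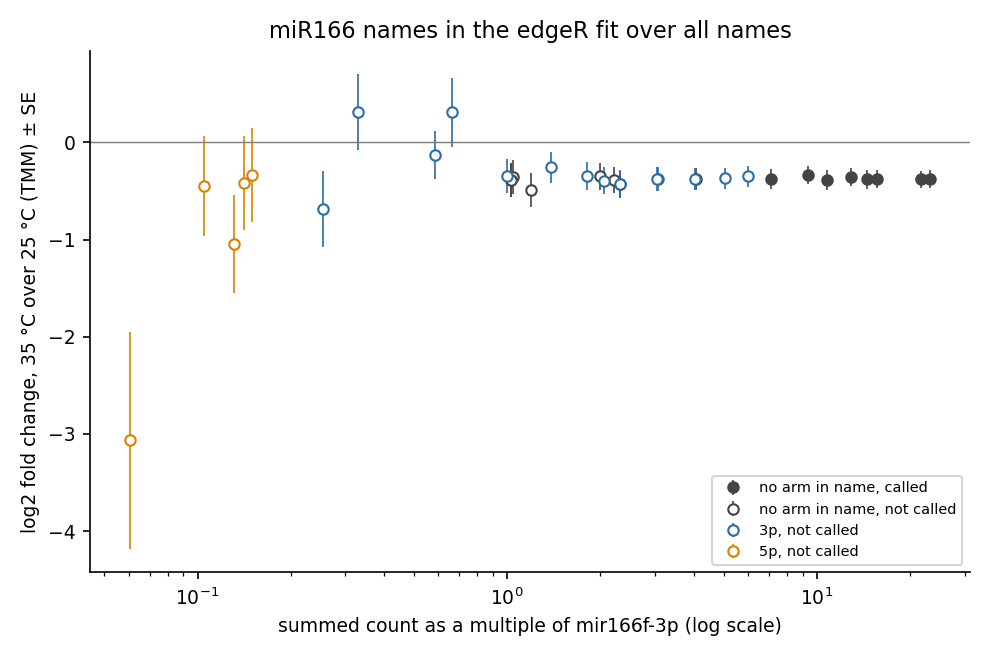
Log2 fold change (35 °C over 25 °C, TMM, ± SE) of the 35 tested members against their summed count as a multiple of mir166f-3p (log axis), by arm, with called names filled. The 26 rows at a multiple of 1 or more lie between -0.26 and -0.49, and the 8 called names are those farthest right.

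The direction of the family was set by the scaling. With the library totals recovered from the deposited normalised values, all 8 names had positive log2 fold changes of 0.61 to 0.65, and none of the 8 was called. In that fit 3 other members were called higher, mir166k-3p, its base row mir166n-3p, and mir166g-5p, which reached the test only through the hot libraries, where it is high, beside 32.3% of all names higher and 0.376% lower. This scaling moved the median over all names tested from 0.01 to 0.99, so the 8 names lay below that median while above 0. With these totals mir166f-3p stood at 287.8, 295.7 and 391.9 CPM of the library total at 25 °C and at 381.0, 482.5 and 651.9 at 35 °C, so the groups overlap by hot library 1. No member was called in either direction with DESeq2 size factors, with no filter, with the miR156 names left out or with normal library 2 left out. Over all names, 15 were higher and 16 lower of 253 with DESeq2 size factors, and 51 and 15 of 641 with no filter. Without the miR156 names 15 were higher and 10 lower of 219, and without normal library 2, 13 and 13 of 264. Leaving out normal library 1 gave 2 lower calls of 40 members tested, beside 11.4% of all names. Leaving out hot library 1 gave 14 of 40, beside 20.3%.

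As a family sum, miR166 had 85130 ± 2480 CPM at 25 °C and 84560 ± 1799 at 35 °C. Its log2 fold change was -0.01 (SE 0.07, edgeR adjusted p = 0.894 over 31 families), smaller than the spread between libraries. Names and families were scaled in separate fits, so -0.01 and the values of single names are not on the same scale. The sum was -0.51 with column sums alone, where it was called lower (edgeR adjusted p = 0.00916), and 0.61 with the library totals (edgeR adjusted p = 0.0808). No direction for the family as a whole holds across these scalings.

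**Figure D3:**
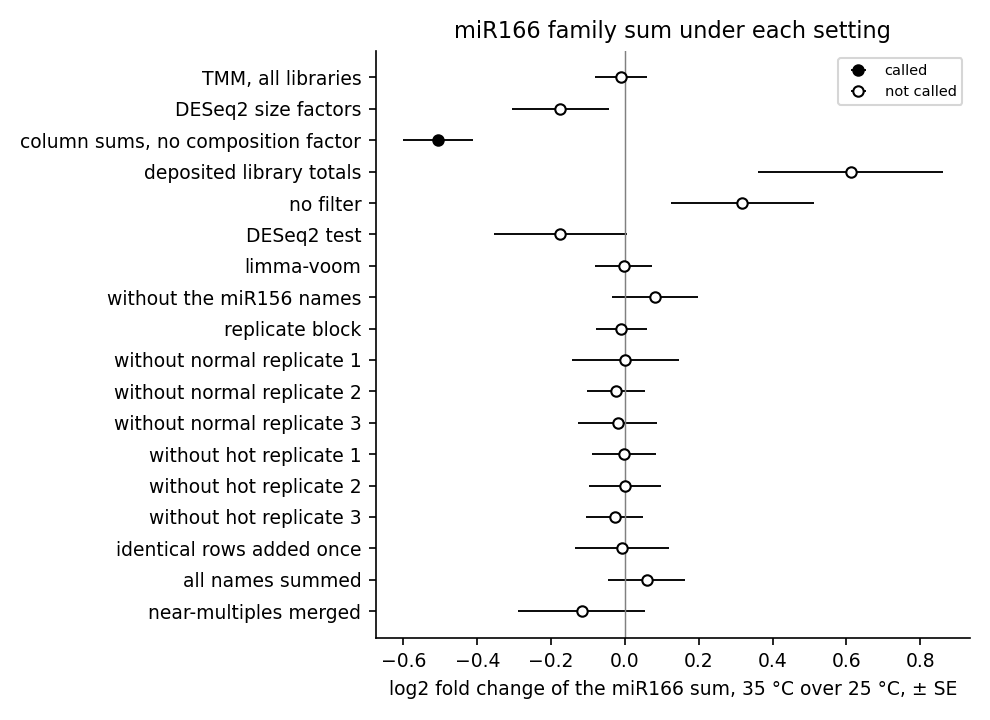
Log2 fold change of the miR166 family sum (horizontal axis, ± SE) under each setting, filled where called. Most settings lie close to 0, column sums alone give -0.51 and the deposited library totals 0.61.

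Ratios of families within a library need no scaling, so differences in them between temperatures were compared. Their levels and signs depend on which rows are merged, and do not say which family is the more abundant. Each was tested by an exact two-sided permutation test, whose smallest p with 3 against 3 libraries is 0.1, and the Benjamini-Hochberg step ran over 7 measures. Against miR396, which targets growth-regulating factor transcripts, the log2 ratio was 0.51, 0.78 and 0.44 in normal libraries 1 to 3. In hot libraries 1 to 3 it was -1.40, -1.19 and -0.62. The ratio was lower in 3 of 3 hot libraries than in any normal one, a difference of -1.65 (exact permutation p = 0.1, adjusted 0.175). With near-multiples merged it was negative in every library, at -3.67, -3.38 and -3.86 at 25 °C and -5.54, -5.42 and -4.97 at 35 °C.

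Against miR159, which targets GAMYB transcripts, the log2 ratio was 0.95, 1.48 and 1.21 at 25 °C and 1.75, 2.02 and 2.26 at 35 °C. All hot libraries lay above all normal ones, with a difference of 0.80 (exact permutation p = 0.1, adjusted 0.175). Against miR319, which targets TCP transcripts, the difference was 0.43, again with no overlap (exact permutation p = 0.1, adjusted 0.175).

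Against miR167, which targets auxin response factor transcripts, the ratio went from 2.29 ± 0.20 to 2.35 ± 0.16 (SD, n = 3 each; exact permutation p = 0.8), within the spread between libraries. Its difference turned to -0.01 without normal library 3 and to -0.03 without hot library 3. Against miR156, which targets SPL transcripts, the difference was -0.49 with no overlap (exact permutation p = 0.1), but it turned to 0.10 when near-multiples were merged as well. Against miR168, which targets Argonaute transcripts, it was -0.50, with overlapping groups (exact permutation p = 0.3, adjusted 0.42).

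**Figure D4:**
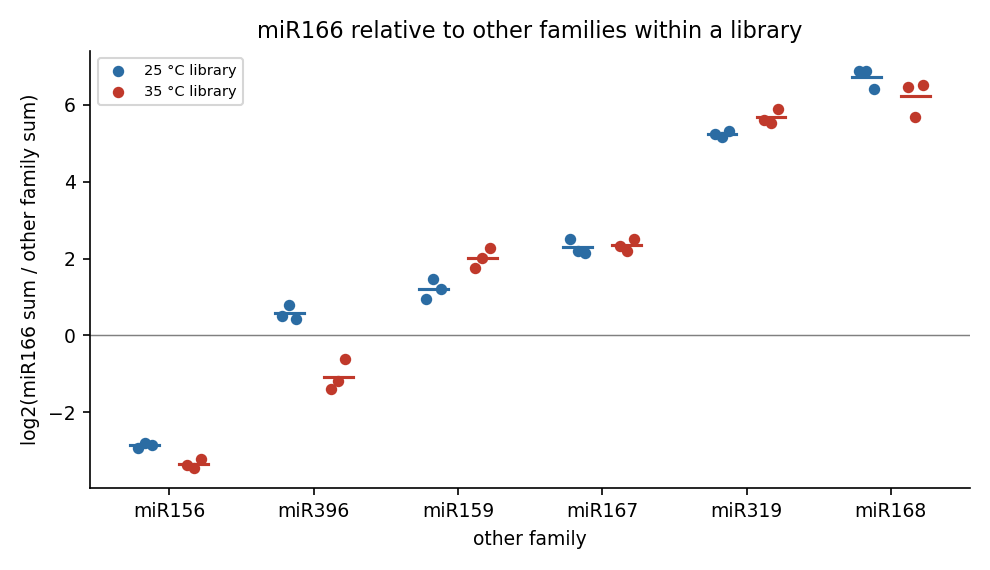
Log2 ratio of the miR166 sum to the sum of 6 other families (horizontal axis) in each library, with bars at group means. The 25 °C and 35 °C libraries separate for miR156, miR396, miR159 and miR319, and overlap for miR167 and miR168.

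The share of the passenger arm depended on which rows were merged. With 1 row per set, 5p names held 0.583%, 0.706% and 0.453% of miR166 counts at 25 °C and 0.764%, 0.364% and 0.403% at 35 °C. The mean went from 0.581% ± 0.126 to 0.510% ± 0.221 (SD, n = 3 each), with hot library 1 above and hot libraries 2 and 3 below every normal library (exact permutation p = 0.7). With near-multiples merged the share was 8.97%, 10.8% and 7.63% at 25 °C and 10.6%, 5.04% and 6.17% at 35 °C, a difference of -1.87 percentage points with overlapping groups. That merging also took some 5p rows out of the share, so the difference does not reflect the entry of 3p rows alone. The summed 5p rows stood at 89.5%, 111% and 69.4% of the single row mir166f-3p in the normal libraries and at 117%, 55.2% and 61.0% in the hot libraries. How scarce the 5p arm was relative to the 3p arm therefore cannot be read from these rows.

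Single 5p names differed from each other more than the arm did as a whole. They are given as a percentage of the mir166f-3p count of the same library, a measure chosen after the values were seen, with the ratio of the pooled counts and its exact conditional 95% interval, which covers counting error only. The name mir166g-5p had 3, 5 and 6 counts at 25 °C and 13, 11 and 18 at 35 °C. It stood at 3.95%, 6.76% and 5.56% of mir166f-3p in the normal libraries and at 21.7%, 9.48% and 11.3% in the hot libraries, so all hot libraries were above all normal ones. The ratio was 2.31 (95% interval 1.20 to 4.68). It did not pass the filter under TMM, and in the fit without a filter it was not called (log2 fold change 1.15, edgeR adjusted p = 0.415).

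The name mir166j-5p lay the other way, with 8, 12 and 11 counts at 25 °C and 4, 0 and 1 at 35 °C. Relative to mir166f-3p it was at 10.5%, 16.2% and 10.2% in the normal libraries and at 6.67%, 0% and 0.629% in the hot libraries. The groups do not overlap, and the ratio was 0.125 (95% interval 0.0373 to 0.329). Under TMM its log2 fold change was -3.07 (SE 1.12, edgeR adjusted p = 0.0873), not called. It passed the low-count filter through the normal libraries, where it is high, so its fitted values are a description, also where it was called, in limma-voom (adjusted p = 0.0484) and without hot library 1 (-4.96, edgeR adjusted p = 0.0134). Without a filter its edgeR adjusted p was 0.142.

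The identical rows mir166h-5p and mir166m-5p had 6, 6 and 3 counts at 25 °C and 0, 0 and 1 at 35 °C, a ratio of 0.0515 (95% interval 0.00122 to 0.339). Neither passed the filter, and in the fit without one both had an edgeR adjusted p of 0.0682. In contrast mir166d-5p (9, 10 and 10 against 10, 10 and 13 counts) had a ratio of 0.877 (95% interval 0.502 to 1.54), and mir166a-5p (11, 15 and 14 against 15, 13 and 21) of 0.944 (95% interval 0.589 to 1.52). The name mir166c-5p is close to mir166a-5p, with 11, 14 and 14 against 14, 12 and 19 counts. The name mir166b-5p had 5, 4 and 2 against 4, 8 and 9. For mir166e-5p, the sum of mir166d-5p and mir166h-5p, the ratio was 0.596 (95% interval 0.358 to 0.984), with overlapping groups. All 5 tested 5p names had a negative log2 fold change under TMM. The direction therefore depends on which 5p name is read, and the 5p rows given here hold 16 to 89 counts each.

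Small rows outside the 5p arm differed as well. The row mir166p had 4, 9 and 11 counts at 25 °C and 3, 2 and 3 at 35 °C, or 5.26%, 12.2% and 10.2% of mir166f-3p against 5.00%, 1.72% and 1.89%. The groups do not overlap, although normal library 1 and hot library 1 differ by less than 1 count's worth, and the ratio was 0.257 (95% interval 0.0982 to 0.604). The row mir166q had 7, 14 and 14 counts against 4, 5 and 4, a ratio of 0.287 (95% interval 0.136 to 0.569). In the fit without a filter mir166p had an edgeR adjusted p of 0.227 and mir166q of 0.165, so neither was called.

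The row mir166n-3p had 28, 15 and 23 counts at 25 °C and 32, 53 and 45 at 35 °C. It stood at 36.8%, 20.3% and 21.3% of mir166f-3p in the normal libraries and at 53.3%, 45.7% and 28.3% in the hot libraries. Hot library 3 fell below normal library 1, so the groups overlap, and the ratio was 1.52 (95% interval 1.07 to 2.16). Its log2 fold change was 0.31 under TMM (SE 0.39, edgeR adjusted p = 0.571) and 1.28 with the library totals, where it was called (edgeR adjusted p = 0.0479). The row mir166m-3p had 19, 26 and 27 against 10, 24 and 45 counts, with overlapping groups and a ratio of 0.845 (95% interval 0.581 to 1.23).

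Over all 34 member rows with 30 or more counts, 1 was higher and 17 were lower relative to mir166f-3p with no overlap between groups. Over all 212 rows compared in this way, members included, 23.6% were higher and 16.0% lower without overlap. Among the 178 other rows, 49 were higher and 17 lower. Of the 17 lower rows, 3 were mir166j-5p, mir166p and mir166q. The ratios of the other 14 fell by only 1.24% to 5.56%, and several of them contain the mir166p counts by exact sum, as given above. They are not separate instances of a lower level.

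**Figure D5:**
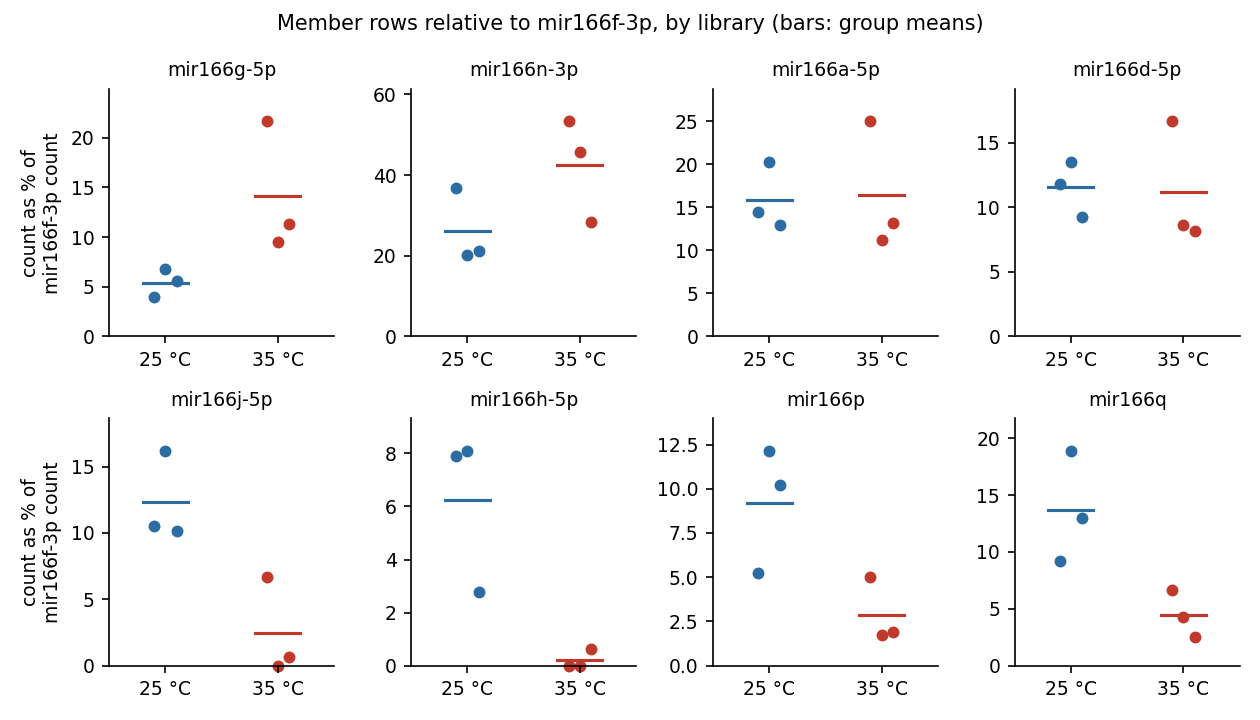
Counts of 8 small member rows as a percentage of the mir166f-3p count (vertical axes, each panel on its own scale from 0) in each 25 °C and 35 °C library, with bars at group means. The groups separate upward for mir166g-5p and downward for mir166j-5p, mir166h-5p, mir166p and mir166q, and overlap for mir166n-3p, mir166a-5p and mir166d-5p.

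The 4 miR165 names, mir165a, mir165a-3p, mir165b and mir165b-3p, held the same single count, in normal library 2, and mir166l-5p is the same row. In a library with no count, up to 3 counts remain possible, or 10.9 to 19.1 CPM of the library total. The remaining scarce rows were mir166u with 10 counts in all, mir166i-5p with 2, in normal library 3, and mir166k-5p with 1, in hot library 3. Of the 52 names, 17 did not pass the filter.

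Families that act beside the HD-ZIP III module were read in the same fit over all names: miR390, which starts trans-acting siRNAs of leaf polarity, miR164, which targets boundary NAC transcripts, miR394, which targets an F-box transcript of the shoot meristem, and miR168. Of 34 names tested, 0 were called higher and 0 lower under TMM with edgeR, beside 7.11% higher and 15.8% lower over all names. At an unadjusted p under 0.05, 11 were higher and 0 lower, beside 22.9% higher and 24.5% lower over all names. In limma-voom 0 were called, beside 18 higher and 44 lower of all 253 names. The 11 are all of the miR394 names tested, whole multiples of 1 row, so they are a single measurement. As a family sum, in the separate fit over 31 families, miR394 was called higher (log2 fold change 1.77, edgeR adjusted p = 0.0485). Also called higher there were miR156, miR384, miR396 and miR5144, while miR159, miR3630, miR5504 and miR5794 were called lower. The miR384 sum held the same values in every library, so these counts cannot be assigned to miR394 alone and entered the adjustment under both names. The names mir394a and mir394b, identical rows, stood at 710 ± 352.2 CPM at 25 °C and 1944 ± 764 CPM at 35 °C. Their log2 fold change was 1.45 (SE 0.47, edgeR adjusted p = 0.0675), with all hot libraries above all normal ones. The most abundant names of the others had log2 fold changes of 0.19 for mir164a, -0.28 for mir168a and -0.27 for mir390b, whose count was 0 in normal library 2. Rows of the same family differed in sign, from -0.28 to 0.51 over 7 miR168 names and from -0.28 to 0.38 over 8 miR390 names. With the library totals 13 of 38 companion names were called higher, 11 of them miR394, beside the 32.3% of all names given above. With the DESeq2 test 6 of 34 were, all miR394, beside 25.3% of all names, and without hot library 1, 11 of 35, all miR394, beside 23.2%.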

How the data were processed

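Small RNA libraries were made with a mirVana kit and the NEBNext small RNA set, per the labels' protocols. The deposited table gives raw expression per name, per the file headers, and a normalised signal, which equals the count over 1 total per library. Rows with a count above 20 gave that total back, the only use made of the signal. The raw values are whole numbers and were taken here as counts, although the headers do not call them reads. No source used here names the matching tool or miRNA release, and no sequences were used. Names were grouped by number (165 joined to 166), and rows of a family that are identical or whole multiples were treated as the same reads. The fits used edgeR's quasi-likelihood F test on counts after filterByExpr and TMM scaling, with Benjamini-Hochberg adjustment over all rows tested (edgeR 4.0.16, R 4.3.3), and DESeq2 1.42.0 and limma 3.58.1 served as alternatives. The SE is the log2 fold change over the square root of F. Reads carry no stated molecular identifiers, so intervals and floors cover counting error only. The fits were tested on simulated data whose rows were drawn independently, so the test does not cover rows that repeat the same reads. The scaling by library totals was not simulated. The members and lists were chosen with earlier results of these data known. Text names follow a fixed rule (members of the 12 most abundant sets that passed the filter, called members, the most abundant companion name of each family), and small rows were added after their values were seen.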

Additional observations from a re-analysis of the deposited data

How the results depend on the processing

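The family sum reversed to 0.61 with the deposited library totals, 0.32 without a filter, 0.0816 without the miR156 names and 0.0589 with all names summed, and passed at -0.51 with column sums alone. Leaving out 1 library gave -0.0274 to 0.0013. The 8 members lower under TMM became 24 of 35 with column sums alone, beside 59 of 253 over all names. They became 0 with DESeq2 size factors, with the library totals, without a filter, without the miR156 names and with the replicate block. In the replicate-block fit 35 of 253 names were lower over all names. With 1 library left out they were 0 to 14, beside 13 to 56 names lower over all names. Members called higher became 3 with the library totals. With those totals the 8 names turned to 0.613 (mir166a), 0.607 (mir166b), 0.612 (mir166c), 0.607 (mir166d), 0.633 (mir166e), 0.607 (mir166f), 0.648 (mir166g) and 0.609 (mir166h), mir166f-3p to 0.637 and mir166m-3p to 0.355, and without the miR156 names mir166g turned to 0.0016. All names called were 58, against 31 with DESeq2 size factors, 104 with the DESeq2 test, 25 without the miR156 names and 26 to 120 when 1 library was left out. Companion names called higher became 13 with the library totals and 6 with the DESeq2 test, as given above. Without a filter 5 of 54 were, beside 51 of 641 over all names. With the replicate block 11 of 34 were, beside 28 of 253 over all names. With 1 library left out 0 to 11 were. The miR156 ratio turned to 0.10 with near-multiples merged. Leaving out 1 library gave -0.0294 to 0.17 for the miR167 ratio and -0.20 to 0.0028 percentage points for the 5p share, whose difference was -1.87 with near-multiples merged. The cause was not tested. Same-numbered libraries had correlations of 0.50, -0.32 and 0.03, so the numbers were not taken as pairs. Depth limits the 5p rows, which hold at most 89 counts each.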

Other observations

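Over the 6 libraries, log2 CPM of the miR166 sum had its highest positive Pearson correlations, among 30 other families, with miR529 (0.54), miR820 (0.39), miR5794 (0.31), miR159 (0.30) and miR5504 (0.29). The strongest correlations were negative, with miR169 (-0.98), miR164 (-0.89) and miR167 (-0.87). These points share library and scaling, and the miR166 sum hardly varied between libraries on this scale, so they are given as a description only.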
